A study of Homo sapiens with 12 samples.

Results

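SW48 cells that received 5'-Aza-cytidine and then Trichostatin A were compared with untreated SW48 cells across all measured genes. The 3 arrays of the combined treatment and the 3 untreated control arrays were taken by their titles from the 12 arrays of the study. SW48 is an established human colorectal cancer line, which the labels describe as microsatellite-instable, and control and treated cells are therefore the same line. Combined cells received 1 µM 5'-Aza-cytidine (azacytidine) for 5 days, followed by 0.5 µM Trichostatin A (TSA) for 2 days, with fresh medium every 24 h. Control cells received neither agent. The other 2 groups received azacytidine alone for 5 days or TSA alone for 2 days, at the same doses, with 3 arrays each. Their arrays also enter the model fit and the detection filter, and they are compared with the combined arrays where stated. Treatment times differed between groups, so time in culture and treatment cannot be told apart, and the labels do not say whether replicates came from separate cultures. The p-values therefore measure the spread between these arrays, which may be technical.

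Cytosine methylation at CpG sites of a promoter, together with deacetylated histones, is a common state of silenced genes. Azacytidine is a cytidine analog that is built into nucleic acids and traps DNA methyltransferases, so methylation is lost as cells divide, while TSA blocks the zinc-dependent histone deacetylases and raises histone acetylation. Colorectal tumours of the microsatellite-instable type often carry methylated promoters at many genes, and germline genes on the X chromosome are among those kept silent by methylation in normal somatic cells.

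The platform was the Illumina HumanWG-6 v3, a bead array of gene probes with 6 arrays on each chip. Of 48801 probes, 12590, 13647 and 12471 were detected (detection p under 0.01) on the combined arrays and 11963, 11742 and 11905 on the control arrays. Every combined array had more detected probes than every control array, by 1033 in the mean (two-sided exact permutation test, p = 0.1, the smallest that 3 against 3 arrays allow). Without combined replicate 2, the array with 13647, the difference was 660.5. Chip 1 held combined replicate 1 with control replicates 1 and 2, and chip 2 held combined replicates 2 and 3 with control replicate 3. Across genes, combined arrays correlated with each other at 0.993 to 0.995, control arrays at 0.991 to 0.994, and combined with control arrays at 0.874 to 0.885. Of 14 colon epithelial line markers, 8 were detected on all 3 arrays of both groups (EPCAM, KRT8, KRT18, KRT19, CDH1, CDH17, CDX2 and ELF3). VIL1, LGALS4, GPA33, CEACAM5 and KRT20 were detected on none of the 6 arrays. CDX1 was detected on no control array and on some but not all combined arrays.

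Signals are given as normalized log2 values after background correction, and replicates are listed in the order 1 to 3. A change is the log2 difference, combined minus control, with its standard error (SE) from a limma fit over the 12 arrays with n = 3 arrays per group. A gene is said to have risen or fallen only if its Benjamini-Hochberg adjusted p over all genes tested was under 0.05. For the 241 genes that are named with such a change, the adjusted limma p lay between 3.5e-16 and 0.0199. Where a gene was detected on no array of a group, its level there is only a ceiling, and the change is given as "at least N-fold", which compares the bright group with the lowest signal that counted as detected. Genes were tested if their probe was detected on at least 3 of the 12 arrays. A gene silent in control cells could therefore enter only through treated arrays, where it had to be high, so counts over lists of such genes describe the genes that passed and support nothing about the rest. In RNA from whole cultures, fewer cells expressing a gene and less RNA per cell cannot be told apart.

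Most of the measured transcriptome differed between combined and control arrays. Of 9484 genes tested, 6541 were called (69.0%), 3108 of them higher (32.8%) and 3433 lower (36.2%). Movement in both directions within a list is therefore what all genes showed, and list counts are to be read against these shares. On chip 1 alone the counts were 2382 higher and 2710 lower, and on chip 2 alone 2596 and 2804. With the arrays scaled to a common median in place of quantile normalization, the median of all genes moved from −0.04 to −0.32, and the split was 1527 higher against 4261 lower. Statements on direction are therefore relative to the bulk of genes. Each list described with more lower than higher members had at least as many lower and no more higher members under median scaling. Because that scaling shifts all genes downward, this outcome was fixed in advance and lends the lists no support. Cyclic loess normalization cut the lower calls from 54 to 47 of 95 mitosis genes and from 43 to 37 of 67 replication genes. It left the 23 of 38 epithelial junction genes unchanged. The 3 combined and 3 control arrays did not overlap for 6740 genes (71.1%). At the other end, 6810 genes had a 95% interval that lay within a 2-fold change either way.

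Changes of 2-fold or more were called for 947 genes upward (9.99%) and 713 downward (7.52%), but for 797 upward and 1299 downward under median scaling. With quantile normalization, changes of 4-fold or more for 401 and 49, and changes of 8-fold or more for 205 and 5. Within chip 1 the 2-fold counts were 983 and 770, and within chip 2 they were 949 and 675. Of the 947 genes, 602 were detected on no control array and 294 on all 3, whereas of the 713 genes, 435 were still detected on all 3 combined arrays. By detection alone, 676 of 10052 genes undetected on every control array were detected on all 3 combined arrays. In the opposite direction, 135 of 8009 genes detected on every control array were detected on no combined array, a count that was 266 without combined replicate 2, the array with the most detected probes.

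**Figure D1:**
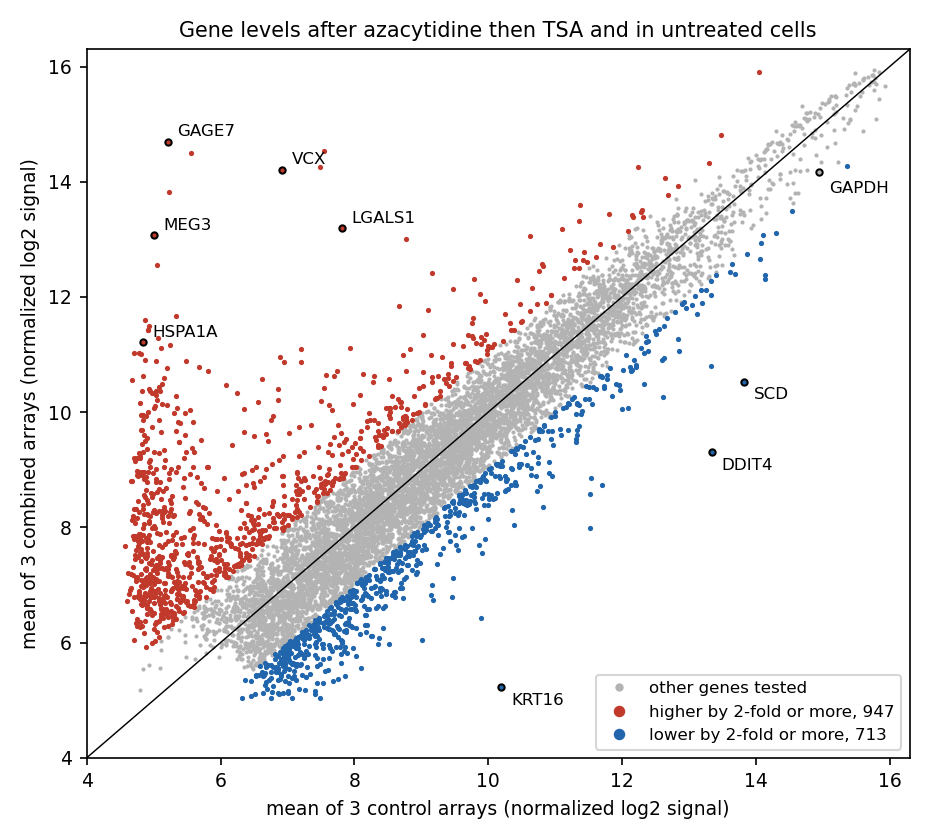
Mean normalized log2 signal of the 3 combined arrays (vertical) against that of the 3 control arrays (horizontal) for 9484 genes, with the diagonal marking equal levels. The 947 genes called higher by 2-fold or more include a column of genes near the background level of the control arrays, and the 713 called lower lie closer to the diagonal.

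Cancer-testis genes, which are normally expressed in germ cells and reappear in some tumours, held the largest increases. GAGE7 read 14.78, 14.71 and 14.60 on the combined arrays and 4.99, 5.14 and 5.50 on the control arrays, a change of 9.49 ± 0.12 (at least 260.1-fold). No control array detected it, and all 3 combined arrays did. GAGE4 was at least 226-fold higher and CT45A3 at least 143-fold, both from X-linked multicopy families. TKTL1, a transketolase-like gene on the X chromosome, read 12.56, 12.50 and 12.59 on the combined arrays and 5.04, 5.07 and 5.03 on the control arrays (at least 58.8-fold). MAGEA4, which encodes a tumour antigen of the MAGE family, read 11.35, 11.65 and 11.47 on the combined arrays and 5.00, 4.97 and 4.80 on the control arrays (at least 28.2-fold). PAGE2, a GAGE relative, was at least 30.5-fold higher. VCX, VCX3B and VCX3A, near-identical genes of the variably charged family, differed from these in having signal on the control arrays. VCX read 14.31, 14.21 and 14.10 on the combined arrays and 6.72, 7.09 and 6.95 on the control arrays, a change of 7.29 ± 0.12 or 156-fold. VCX3B changed by 6.98 ± 0.10 and VCX3A by 6.78 ± 0.09. Transcripts of near-identical members may bind the same probe, which leaves the identity of a single member uncertain.

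Of 74 genes of the cancer-testis families with a probe, 46 were tested, 45 rose and 1 fell. The gene that fell, named after its value was seen, was ATAD2, a chromatin ATPase also active in dividing cells (−0.36 ± 0.10). Its call was lost within chip 1 (adjusted p = 0.122), within chip 2 (adjusted p = 0.0763) and under cyclic loess (adjusted p = 0.0906). Among the tested genes 40 were detected on no control array, and the median change was 4.58, or 2.99 with genes below detection at their bound. By family, 8 of 14 MAGEA genes with a probe were tested and all 8 rose. None of the 8 was detected on a control array and 7 were detected on all 3 combined arrays. All 4 VCX, 5 of 6 PAGE, 5 of 7 SSX, 4 of 9 SPANX, 3 of 3 CTAG and 3 of 5 CT45A genes were tested and rose. None of the 3 XAGE genes with a probe passed the detection filter. Members that did not pass have no measured level here.

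The promoter windows of MAGEA4 and TKTL1 are printed because both genes went from no detection to high signal on every combined array. They run from 250 bases before to 50 bases after the gene start in RefSeq (GRCh38.p14), read 5′ to 3′ in the direction of the gene, with CG dinucleotides in capitals. The MAGEA4 window (chrX:151912224-151912523, plus strand) holds 10 CpG sites and the TKTL1 window (chrX:154295545-154295844, plus strand) 18, against a median of 26 over the 7831 tested genes with a window (quartiles 19 and 35). Only 76.1% of the tested cancer-testis genes had a window, so no CpG comparison of the list was made.
MAGEA4: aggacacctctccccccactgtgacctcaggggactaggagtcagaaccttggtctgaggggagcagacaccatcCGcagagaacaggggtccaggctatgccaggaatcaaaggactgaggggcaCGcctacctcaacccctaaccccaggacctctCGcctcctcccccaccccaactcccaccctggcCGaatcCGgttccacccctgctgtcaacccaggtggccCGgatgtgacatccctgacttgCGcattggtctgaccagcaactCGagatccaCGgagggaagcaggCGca
TKTL1: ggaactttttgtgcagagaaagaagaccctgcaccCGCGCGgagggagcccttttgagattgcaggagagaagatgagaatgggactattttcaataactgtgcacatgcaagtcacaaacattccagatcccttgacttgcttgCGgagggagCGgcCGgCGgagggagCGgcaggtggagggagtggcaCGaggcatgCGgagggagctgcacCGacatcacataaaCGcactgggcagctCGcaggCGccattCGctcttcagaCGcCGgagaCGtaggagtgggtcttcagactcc

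Genes of germ cell RNA handling and meiosis rose as well. Of 59 with a probe, 31 were tested, 27 rose and 4 fell, with a median change of 2.04 (0.84 with bounds), and 19 of them were detected on no control array. FKBP6, a co-chaperone of the piRNA pathway, read 11.24, 11.15 and 11.12 on the combined arrays and 5.25, 5.19 and 5.28 on the control arrays (at least 22.6-fold). SOHLH1, a germ cell transcription factor, was at least 14.8-fold higher. MAEL, which acts in piRNA-guided silencing, was at least 11.2-fold higher, and TEX11, an X-linked meiotic gene, at least 5.8-fold. The 4 members that fell were all detected on the 3 control arrays. PSMC3IP (−1.66 ± 0.13) and MND1 (−1.64 ± 0.08) encode partners of recombination proteins, and PLD6 (−1.36 ± 0.11) encodes a mitochondrial phospholipase of the piRNA pathway.

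Imprinted genes, which are normally read from a single parental copy, included one of the 10 largest increases. MEG3, a maternally expressed noncoding RNA, read 13.04, 13.07 and 13.09 on the combined arrays and 4.94, 5.00 and 5.06 on the control arrays (at least 84.2-fold). All 3 combined arrays lay within 0.1 of each other. DLK1, its paternally expressed neighbour on chromosome 14, was at least 10.6-fold higher. NNAT, a neuronal imprinted gene, was at least 5.64-fold higher, and NLRP2 at least 2.00-fold. Of 21 tested imprinted genes, 13 rose and 3 fell, and 5 were not called, while 9 rose and 5 fell under median scaling. GRB10, an adaptor of insulin receptor signalling (−1.02 ± 0.10), and GNAS, the stimulatory G protein subunit (−0.93 ± 0.09), fell.

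WNT antagonists moved in both directions. DKK1, a secreted inhibitor of the WNT co-receptors, read 11.57, 11.69 and 11.72 on the combined arrays and 5.50, 5.34 and 5.14 on the control arrays (at least 31.8-fold). DKK4, of the same family, was at least 4.38-fold higher, APCDD1, a membrane-bound inhibitor, at least 1.24-fold, and DACT3, an intracellular inhibitor detected in control cells, rose by 1.38 ± 0.10. NOTUM, a secreted enzyme that inactivates WNT ligands and is itself a WNT target, read 7.59, 7.55 and 7.53 on the combined and 10.43, 9.70 and 9.61 on the control arrays, and fell by 2.36 ± 0.16. In the list, 6 of 10 tested genes rose and 2 fell.

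The windows of MEG3 (chr14:100825858-100826157, plus strand, 19 CpG sites) and DKK1 (chr10:52314031-52314330, plus strand, 20 CpG sites) are shown in the same way, for the noncoding RNA and the WNT antagonist that rose most in their lists.
MEG3: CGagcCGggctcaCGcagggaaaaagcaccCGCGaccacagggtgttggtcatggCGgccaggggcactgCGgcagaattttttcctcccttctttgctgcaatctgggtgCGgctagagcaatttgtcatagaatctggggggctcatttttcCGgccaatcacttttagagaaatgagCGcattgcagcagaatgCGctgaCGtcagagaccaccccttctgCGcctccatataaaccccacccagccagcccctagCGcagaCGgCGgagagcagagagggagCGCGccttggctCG
DKK1: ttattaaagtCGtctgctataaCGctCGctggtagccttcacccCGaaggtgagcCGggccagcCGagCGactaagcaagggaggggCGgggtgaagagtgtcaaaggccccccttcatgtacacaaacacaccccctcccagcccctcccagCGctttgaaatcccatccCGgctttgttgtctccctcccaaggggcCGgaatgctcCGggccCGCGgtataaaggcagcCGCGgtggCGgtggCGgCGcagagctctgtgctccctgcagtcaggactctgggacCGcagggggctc

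Genes reported to be hypermethylated in colorectal cancer rose in 14 of 23 tested members and fell in 6, with a median of 0.73 (0.48 with bounds). Of 69 members with a probe, 23 passed the filter. VIM, the mesenchymal intermediate filament whose promoter methylation is used as a stool marker of colorectal cancer, read 10.70, 10.79 and 10.66 on the combined arrays and 5.97, 5.78 and 5.69 on the control arrays (at least 16.5-fold). UCHL1, a neuronal deubiquitinase, was at least 5.57-fold higher and RUNX3, a transcription factor of the TGF-beta response, at least 5.51-fold. MAL, a membrane raft protein, was detected on 2 of the 3 control arrays and rose by 3.95 ± 0.13. MGMT, the methylguanine repair enzyme silenced in many tumours, read 9.11, 9.07 and 8.95 on the combined arrays and 5.45, 5.31 and 5.32 on the control arrays (at least 5.17-fold). IGFBP3, a binding protein of insulin-like growth factors, moved the other way with no overlap, from 11.48, 11.51 and 11.58 on the control arrays to 8.63, 8.62 and 8.46 on the combined arrays (−2.95 ± 0.08). UNC5B, a netrin receptor, also fell (−1.34 ± 0.15).

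**Figure D2:**
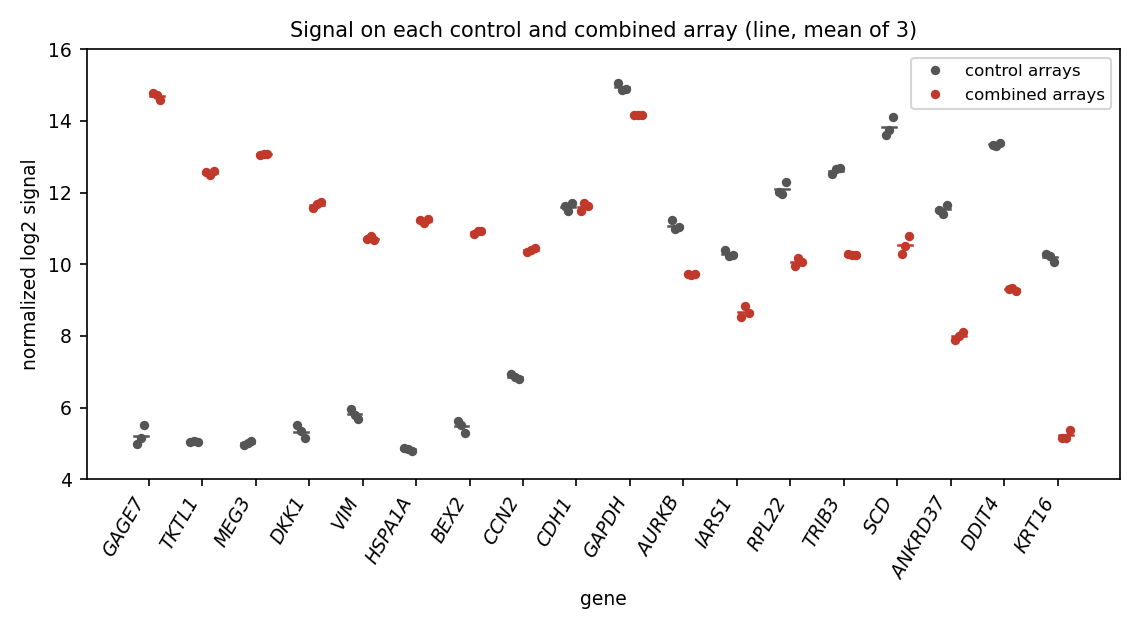
Normalized log2 signal of 18 named genes on each of the 3 control and 3 combined arrays, with a line at each group's mean. The groups overlap for CDH1 and are apart for the other genes shown, with GAGE7 highest on the combined arrays and KRT16 among the lowest there.

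Of 50 neuronal and neuroendocrine genes with a probe, 25 passed the filter. Of the genes that passed 20 rose and 1 fell, 19 of them being undetected on the control arrays, and the median was 2.22 (0.87 with bounds). BEX2, a small X-linked adaptor expressed in brain, read 10.83, 10.92 and 10.92 on the combined arrays and 5.62, 5.52 and 5.30 on the control arrays (at least 18.6-fold). BEX1 was at least 9.55-fold and BEX3 at least 13-fold higher. NEFH, the heavy neurofilament subunit, was at least 7.32-fold higher, and KIF1A, a motor of synaptic vesicle precursors, at least 6.47-fold. In the BEX and TCEAL family, which lies in clusters on the X chromosome, 8 of 11 tested genes rose. TCEAL2 was at least 4.91-fold higher, while TCEAL1 fell (−0.77 ± 0.14).

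All 11 tested members of the BEX and TCEAL family had a promoter window, and 7 of them (63.6%) held the palindrome CACGTG, against 10.9% of all windows. Of the 7 with it 5 rose, and of the 4 without it 3 rose and 1 fell. The shorter ACGTG, which lies within CACGTG, was found on either strand in 90.9% of these windows and 27.6% of all. The stretches around CACGTG (capitals) in 4 members that rose are printed to show how alike they are. BEX4 was added after its value had been seen (at least 3.63-fold higher). Positions are chrX:103310986-103311027 (minus strand) for BEX2, chrX:103064195-103064236 (minus strand) for BEX1, chrX:103215071-103215112 (plus strand) for BEX4 and chrX:102125609-102125650 (plus strand) for TCEAL2, all in GRCh38.p14. A match describes the sequence only and shows no binding.
BEX2: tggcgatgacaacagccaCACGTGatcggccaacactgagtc
BEX4: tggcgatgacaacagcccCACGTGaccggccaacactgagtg
BEX1: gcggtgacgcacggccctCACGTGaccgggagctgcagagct
TCEAL2: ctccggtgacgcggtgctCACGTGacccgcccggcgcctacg

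Genes widely reported to rise after histone deacetylase inhibitors rose in 30 of 39 tested members and fell in 5 (median 0.91, or 0.55 under median scaling). SYT11, a synaptotagmin of vesicle trafficking, read 9.96, 9.75 and 9.78 on the combined arrays and 5.93, 5.52 and 5.29 on the control arrays (at least 8.92-fold). CPA4, a carboxypeptidase first described as a gene induced by such inhibitors, was at least 6.24-fold higher and the lysosomal protease gene CTSL at least 3.71-fold. CRIP1, a small LIM-domain protein with signal in control cells, rose by 3.67 ± 0.10. CDKN1A, the p21 inhibitor of cyclin-dependent kinases, rose by 0.59 ± 0.07, from 12.76, 12.81 and 12.72 to 13.44, 13.41 and 13.23, but missed the threshold under median scaling (adjusted p = 0.231). TXNIP, a thioredoxin-binding regulator of glucose uptake, fell by 1.57 ± 0.08, CRIP2 fell by 1.41 ± 0.13 and the neuronal enolase gene ENO2 fell by 1.27 ± 0.09.

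Among the 947 genes higher by 2-fold or more, 506 (53.4%) were also higher than on the azacytidine arrays and 76 lower, against 15.7% and 19.4% of all genes. Against the TSA arrays 945 (99.8%) were higher, compared with 33.4% of all genes. Of the 713 genes lower by 2-fold or more, 309 (43.3%) were lower than on the azacytidine arrays and 39 higher. All 713 were lower than on the TSA arrays, compared with 36.4% of all genes. Every contrast here contains the combined arrays, so these counts are not independent of each other. Over all genes 35.1% were called between combined and azacytidine arrays and 69.8% between combined and TSA arrays. LGALS1, which encodes the secreted galectin-1, read 13.16, 13.24 and 13.17 on the combined arrays and 7.74, 7.82 and 7.88 on the control arrays, and 9.71, 9.89 and 9.93 on the azacytidine arrays. The combined arrays were thus higher than azacytidine alone by 3.35 ± 0.08 (adjusted p = 2.4e-11) with no overlap. LGALS7, an epithelial galectin with a near-identical copy, read 11.09, 10.87 and 10.89 after the combined treatment, 8.29, 8.54 and 8.21 after azacytidine and 6.86, 6.94 and 6.87 in control cells.

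HBA2, an alpha-globin gene with a near-identical copy, read 11.08, 10.88 and 10.70 on the combined arrays and 5.11, 5.05 and 4.95 on the control arrays (at least 18.5-fold), and lay 3.23 ± 0.13 above the azacytidine arrays. HBA1 was at least 11.1-fold higher than control and the theta globin HBQ1 at least 4.51-fold, whereas EPOR, which encodes the erythropoietin receptor, fell by 1.03 ± 0.19. SYT11 lay 2.99 ± 0.14 above the azacytidine arrays, NNAT 2.62 ± 0.09 and CPA4 2.31 ± 0.19. VWF, an adhesive blood glycoprotein made by endothelial cells, was at least 8.95-fold above control and 2.02 ± 0.15 above azacytidine. SLC2A3, a high-affinity glucose transporter, rose by 3.89 ± 0.10 over control and lay 1.91 ± 0.10 above azacytidine. TGFBI, an extracellular matrix protein, showed the opposite order. It was at least 2.95-fold higher than control, yet read 8.23, 8.27 and 8.21 on the combined and 9.91, 9.96 and 9.76 on the azacytidine arrays, a difference of −1.64 ± 0.10. For GAGE7 (0.10 ± 0.12, adjusted p = 0.528) and VIM (0.12 ± 0.08, adjusted p = 0.279) the combined and azacytidine arrays were not told apart.

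**Figure D3:**
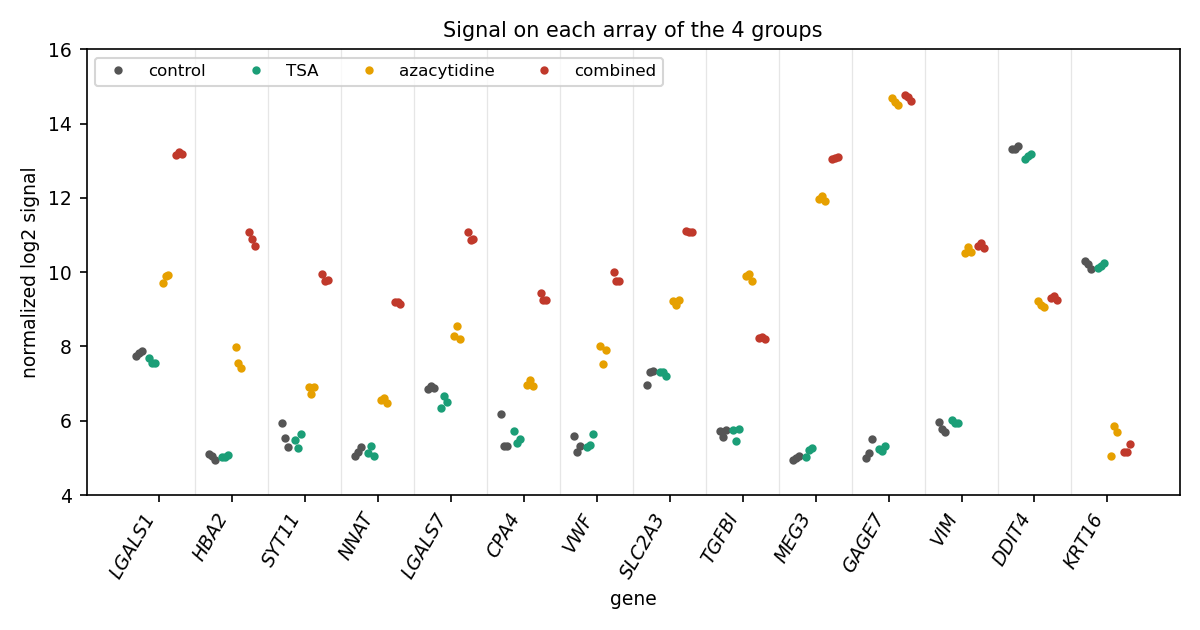
Normalized log2 signal of 14 named genes on each of the 3 arrays of the 4 groups. LGALS1, HBA2, SYT11, NNAT, LGALS7, CPA4, VWF and SLC2A3 are highest on the combined arrays, TGFBI is highest on the azacytidine arrays, and TSA arrays lie near control arrays for the genes shown.

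VWF was the only 1 of 4 endothelial markers detected on the combined arrays, and PECAM1, CDH5 and KDR were detected on none of the 6 arrays. Of 6 haematopoietic markers with a probe, CD68 was detected in both groups and CD14, a lipopolysaccharide co-receptor, on the combined arrays (at least 2.39-fold). PTPRC, CD3E, LCP1 and TYROBP were detected on none. In the longer list of haematopoietic and endothelial markers 5 of 7 tested genes rose and 2 fell, including CORO1A, an actin regulator of leukocytes (at least 3.22-fold higher). Of 8 fibroblast markers, PDGFRA was detected on all 3 arrays of both groups. THY1, a surface marker of fibroblasts and neurons, was at least 2.74-fold higher. COL1A1 was detected on no control array and on some but not all combined arrays. COL1A2, COL3A1, DCN, LUM and FAP were detected on none of the 6 arrays. In the mesenchymal and fibroblast list 12 of 22 tested genes rose and 2 fell (median 0.55), or 9 and 3 under median scaling (median 0.26).

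Of 42 collagen genes with a probe 10 were tested, and all 10 rose (median 1.10, or 0.79 with bounds). Of these, 7 were detected on no control array and so passed the filter only through treated arrays. COL6A3 was at least 1.99-fold and COL20A1 at least 2.21-fold higher. Tubulin isotypes rose in 9 of 15 and fell in 3, and the median of 0.39 came to 0.02 under median scaling. TUBB6 was at least 7.58-fold higher, and TUBA3E, whose probe may also bind its near copy TUBA3D, at least 5.08-fold. TUBA3D itself rose by 2.67 ± 0.08 and TUBB2A by 1.96 ± 0.07. TUBA1C, an abundant isotype of dividing cells, fell by 0.96 ± 0.08.

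Epithelial genes were on balance lower. Keratins fell in 7 of 10 tested members and rose in 2. KRT16, a stress keratin of stratified epithelia, read 5.15, 5.16 and 5.37 on the combined arrays and 10.29, 10.22 and 10.07 on the control arrays, the largest decrease measured (−4.97 ± 0.16, at least 14.4-fold lower). KRT19, a simple epithelial keratin, fell by 0.81 ± 0.16, KRT15 fell by 0.77 ± 0.14 (adjusted p = 0.104 within chip 2), KRT18 fell by 0.44 ± 0.09 and KRT23 was at least 1.55-fold lower. The corneal keratin KRT12 was at least 2.11-fold higher, and KRT10 rose by 1.34 ± 0.08. Among epithelial junction genes 23 of 38 fell and 6 rose (median −0.49, or −0.43 with bounds). EPS8L1, an actin regulator, read 6.44, 6.59 and 6.23 on the combined and 10.01, 9.85 and 9.80 on the control arrays (−3.47 ± 0.17). Its relative EPS8L3 was at least 1.5-fold lower, OVOL1, an epithelial transcription factor, fell by 1.82 ± 0.10 and the small GTPase gene RAB25 fell by 1.32 ± 0.12. CLDN1, a tight junction claudin, was at least 1.7-fold higher, CLDN23 rose by 1.07 ± 0.11 and the junction protein gene CGN by 0.61 ± 0.09, the last of which missed the threshold under median scaling (adjusted p = 0.152). CDH1, which encodes E-cadherin, read 11.48, 11.70 and 11.63 on the combined arrays and 11.63, 11.48 and 11.71 on the control arrays, with overlapping groups and an adjusted p of 0.982. Under median scaling CDH1 fell by 0.43 (adjusted p = 0.0463).

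Of the tested colon epithelial line markers 5 of 8 fell and 1 rose. CDX2, the intestinal homeobox factor, rose by 1.04 ± 0.10. The liver-intestine cadherin CDH17 fell by 0.90 ± 0.10 and ELF3, an epithelial ETS factor, fell by 0.74 ± 0.09. Intestinal differentiation genes rose in 8 of 15 and fell in 5. MUC20 was at least 5.02-fold higher, TSPAN8, a tetraspanin of intestinal epithelium, at least 2.19-fold, and MUC1 rose by 1.37 ± 0.12. HSD11B2, a steroid dehydrogenase of colon epithelium, fell by 2.67 ± 0.12. Other genes among the 10 largest decreases were LEMD1 (−2.96 ± 0.11) and IGFL2 (−2.96 ± 0.09). Among genes that went below detection were the membrane protein gene TMC4 (at least 4.49-fold lower) and the circadian transcription factor DBP (at least 3.36-fold lower).

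**Figure D4:**
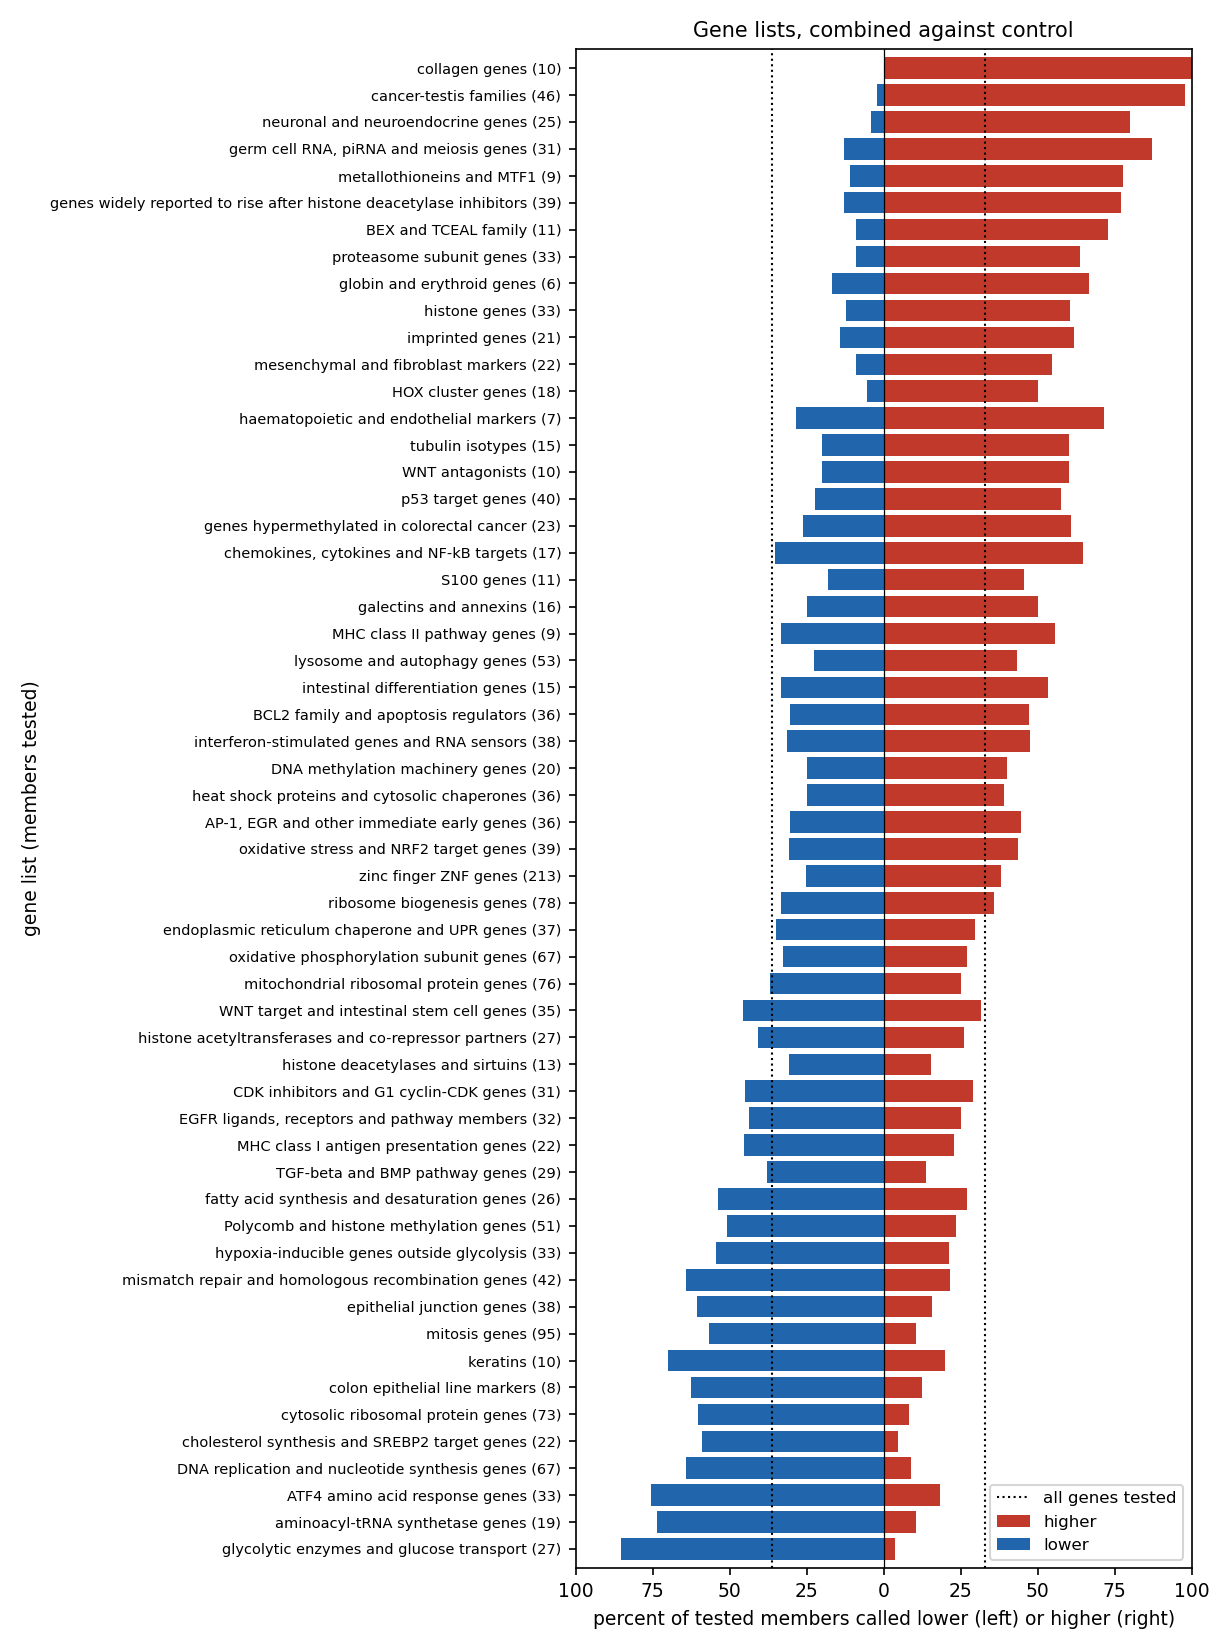
Percent of the tested members of each gene list called higher (right) or lower (left) in combined against control arrays, with the number tested in brackets and dotted lines at the share over all genes tested, 32.8% higher and 36.2% lower. Germline, neuronal and collagen lists lie to the right and glycolysis, aminoacyl-tRNA synthetase and ATF4 lists to the left.

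Genes of cell division fell more often than they rose. Of 67 tested genes of DNA replication and nucleotide synthesis 43 fell and 6 rose (median −0.37). WDHD1, a replisome factor, was at least 1.87-fold lower and RRM2, the small ribonucleotide reductase subunit, at least 1.5-fold. POLD3 (−1.49 ± 0.15), a DNA polymerase delta subunit, and CAD (−1.33 ± 0.12), which starts pyrimidine synthesis, also fell. CHTF18, a clamp loader subunit, rose by 0.64 ± 0.08, a call lost under median scaling (adjusted p = 0.242). Of 95 tested mitosis genes 54 fell and 10 rose (median −0.36). AURKB, the kinase of the chromosomal passenger complex, read 9.73, 9.70 and 9.72 on the combined arrays and 11.22, 10.97 and 11.03 on the control arrays. SMC2, a condensin subunit, fell by 1.44 ± 0.09, and KIF11, a spindle motor, fell by 1.30 ± 0.09. MKI67, the proliferation marker, read 5.15, 5.80 and 5.20 on the combined arrays, all undetected, and 6.88, 6.76 and 6.63 on the control arrays, 2 of them detected (at least 1.33-fold lower), a call lost within chip 2 (adjusted p = 0.0714). INCENP (1.00 ± 0.15), another passenger subunit, and UBE2S (0.96 ± 0.10), a ubiquitin-conjugating enzyme of mitotic exit, rose.

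The hexamer TTTGAA, the core of the cell cycle homology element bound by the DREAM and MuvB complexes, was sought on both strands of the promoter windows. It was present in 65.0% of the 80 tested mitosis genes that had a window and in 9.30% of all windows. Of the 52 mitosis genes with it 33 fell and 5 rose (median −0.49), and of the 28 without it 11 fell and 4 rose (median −0.11). CCAAT was present in 67.5% of the mitosis windows and 37.7% of all. The stretches around the hexamer in KIF11 (chr10:92593084-92593125, plus strand) and SMC2 (chr9:104094288-104094329, plus strand) of GRCh38.p14 show it in capitals as its reverse complement TTCAAA.
KIF11: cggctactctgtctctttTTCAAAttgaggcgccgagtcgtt
SMC2: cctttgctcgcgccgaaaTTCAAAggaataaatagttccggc

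Mismatch repair and homologous recombination genes fell in 27 of 42 and rose in 9. BRCA1 was at least 2.1-fold lower, FANCI, of the Fanconi anaemia pathway, fell by 1.42 ± 0.10 and RAD51AP1 fell by 1.56 ± 0.20. Among CDK inhibitors and G1 cyclin-CDK genes 14 of 31 fell (45.2%) and 9 rose (29.0%), against 36.2% and 32.8% of all genes. Under cyclic loess 12 moved each way. CDK4 fell by 1.07 ± 0.09, MYC fell by 0.82 ± 0.08 and MXD1, a MYC antagonist, fell by 1.38 ± 0.13. CDKN2D, an inhibitor of CDK4, rose by 1.10 ± 0.10, CDK6 by 0.90 ± 0.12 and CDKN2A by 0.61 ± 0.17. The CDKN2A arrays overlapped between the groups, and its call was lost within chip 1 (adjusted p = 0.0744).

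Among histone genes, clustered and variant, 20 of 33 were higher and 4 lower, or 18 and 10 under median scaling. Only the clustered ones are transcribed mainly in S phase. The linker histone gene H1-2 read 13.33, 13.13 and 13.08 on the combined arrays and 11.03, 11.27 and 11.03 on the control arrays, a change of 2.07 ± 0.11. H3C8 was at least 2.28-fold, H4C8 at least 2.07-fold and the variant gene MACROH2A2 at least 1.71-fold higher, although clustered histone genes are alike enough to share probe signal. H1-10, another linker histone gene, fell by 1.94 ± 0.11.

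Genes for DNA methyltransferases and deacetylases, the enzyme families that the drugs act on, moved in both directions. DNMT1, the maintenance methyltransferase, read 13.01, 13.07 and 13.10 on the combined arrays and 13.18, 13.08 and 13.37 on the control arrays, with overlapping groups (change −0.15 ± 0.09, adjusted p = 0.161). The call differed by setting, since DNMT1 fell with chip as a block (−0.21, adjusted p = 0.0136), within chip 2 (−0.29, adjusted p = 0.0483) and under median scaling (−0.55, adjusted p = 0.00836). DNMT3B, a de novo methyltransferase, rose by 0.66 ± 0.09, a call lost under median scaling (adjusted p = 0.0843). HDAC1 changed by −0.09 ± 0.07 (adjusted p = 0.309) and HDAC2 by −0.00 ± 0.07 (adjusted p = 0.985), and under median scaling both fell (adjusted p of 0.012 and 0.0296). HDAC3 fell by 0.25 ± 0.09, a call lost within chip 1 (adjusted p = 0.222) and within chip 2 (adjusted p = 0.143) and without combined replicate 3 (adjusted p = 0.0733) or control replicate 1 (adjusted p = 0.0821). HDAC8 fell by 0.97 ± 0.13 and HDAC6, a cytoplasmic deacetylase, fell by 0.52 ± 0.07, while SIRT4, a mitochondrial sirtuin gene outside the family that TSA blocks, rose by 0.82 ± 0.09. Over the deacetylases and sirtuins 4 of 13 fell and 2 rose.

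In the DNA methylation machinery 8 of 20 genes rose and 5 fell, or 3 and 8 under median scaling, where the median turned from 0.09 to −0.24. CTCFL, a germline paralogue of the insulator factor CTCF, read 8.96, 8.93 and 8.86 on the combined arrays and 4.82, 4.81 and 4.87 on the control arrays (at least 4.73-fold). CXXC1, which binds unmethylated CpG sites, rose by 1.07 ± 0.11, and CDCA7, a partner of the remodeller HELLS, fell by 1.06 ± 0.10. Polycomb and histone methylation genes fell in 26 of 51 and rose in 12. PCGF2, a Polycomb ring finger protein, fell by 1.61 ± 0.07 and EHMT2, a lysine methyltransferase of repressive chromatin, fell by 1.36 ± 0.17. DOT1L, a methyltransferase of active genes, rose by 1.16 ± 0.18, and BMI1, an alternative to PCGF2 in the complex, by 0.91 ± 0.11. Among histone acetyltransferases and co-repressor partners 7 of 27 rose (25.9%) and 11 fell (40.7%), against 32.8% and 36.2% of all genes. Under cyclic loess normalization 10 rose and 9 fell.

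Enzymes that break down glucose were mostly lower. Of 27 tested glycolytic enzymes and glucose transport genes 23 fell and 1 rose, with a median change of −0.79. ALDOC, a fructose-bisphosphate aldolase, read 10.87, 10.74 and 10.77 on the combined arrays and 13.39, 13.31 and 13.26 on the control arrays. LDHA, lactate dehydrogenase A, read 12.28, 12.43 and 12.44 on the combined arrays and 14.15, 13.99 and 14.29 on the control arrays and fell by 1.76 ± 0.10. HK2, the inducible hexokinase, fell by 1.59 ± 0.10, GPI fell by 1.43 ± 0.13 and GAPDH, often used as a reference gene, fell by 0.78 ± 0.07. The one member that rose was SLC2A3, whose combined arrays lay at 11.12, 11.09 and 11.09 and control arrays at 6.97, 7.31 and 7.35. ACGTG, the core of the hypoxia response element, was in 42.3% of the glycolytic windows on either strand and in 27.6% of all.

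Hypoxia-inducible genes outside glycolysis fell in 18 of 33 and rose in 7. DDIT4, which restrains mTOR under stress, read 9.31, 9.35 and 9.25 on the combined arrays and 13.32, 13.31 and 13.39 on the control arrays, a change of −4.04 ± 0.07 or 16.5-fold lower. ANKRD37, a target of hypoxia-inducible factor, read 7.88, 7.99 and 8.12 on the combined and 11.52, 11.41 and 11.66 on the control arrays (−3.53 ± 0.08). NDRG1 fell by 2.67 ± 0.09 and VEGFA, the angiogenic growth factor, fell by 1.74 ± 0.13. BNIP3, a mitophagy receptor listed in the same group, moved the other way from below detection (at least 2.06-fold higher), whereas its close relative BNIP3L fell by 2.04 ± 0.14. The lipase inhibitor gene ANGPTL4 was at least 1.88-fold higher, and STC2, a secreted glycoprotein, at least 1.09-fold.

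Lipid synthesis genes were mostly lower too. Of 22 tested genes of cholesterol synthesis and SREBP2 targets 13 fell and 1 rose (median −0.67, or −0.50 with bounds). INSIG1, the sterol-regulated anchor of SREBP, read 8.47, 8.38 and 8.23 on the combined arrays and 10.67, 10.69 and 11.09 on the control arrays. DHCR7, the last enzyme of the pathway, fell by 1.83 ± 0.13, ACAT2 fell by 1.30 ± 0.14 and the isomerase gene IDI1 fell by 1.16 ± 0.14. Among fatty acid synthesis and desaturation genes 14 of 26 fell and 7 rose. SCD, the stearoyl-CoA desaturase, read 10.27, 10.52 and 10.79 on the combined arrays and 13.59, 13.76 and 14.10 on the control arrays, with a wide spread but no overlap. ACSL5 fell by 2.34 ± 0.11, SREBF1, the regulator of the pathway, fell by 1.76 ± 0.08 and ACSS2 fell by 1.42 ± 0.09. ELOVL5, an elongase of polyunsaturated fatty acids, was at least 1.39-fold higher.

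Genes of the amino acid response, run by the transcription factor ATF4, fell in 25 of 33 tested genes and rose in 6, with a median of −1.05. TRIB3, a pseudokinase that feeds back on ATF4, read 10.28, 10.26 and 10.25 on the combined arrays and 12.50, 12.65 and 12.69 on the control arrays. DDIT3, which encodes CHOP, fell by 2.06 ± 0.08 and PCK2, the mitochondrial phosphoenolpyruvate carboxykinase, fell by 1.84 ± 0.06. CBS, the cystathionine synthase, differed in direction and read 10.21, 9.98 and 10.00 on the combined arrays and 5.20, 5.54 and 5.29 on the control arrays (at least 10.5-fold higher), and ATF3 rose by 1.43 ± 0.09. Aminoacyl-tRNA synthetase genes, many of which are ATF4 targets, were called lower for 14 of 19 members and higher for 2 (median −0.62). IARS1, the isoleucine enzyme, read 8.53, 8.82 and 8.64 on the combined arrays and 10.39, 10.23 and 10.26 on the control arrays. WARS1 fell by 1.42 ± 0.07, AARS1 fell by 1.13 ± 0.07 and MARS1 fell by 1.06 ± 0.09, whereas RARS1 rose by 0.48 ± 0.08, a call lost under median scaling (adjusted p = 0.774).

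The composite site TGATGCAA, bound by C/EBP and ATF dimers, was present on either strand in 6 of the 16 synthetase genes with a window (37.5%) and in 0.549% of all windows. All 6 fell (median −0.95), and of the 10 without it 6 fell and 2 rose (median −0.49). The sites of 4 of these genes are printed with the reverse complement TTGCATCA in capitals, each in the direction of its gene and in GRCh38.p14. CARS1 was added after its value had been seen (−0.84 ± 0.09). The positions are chr9:92293685-92293728 (minus strand) for IARS1, chr16:70289668-70289711 (minus strand) for AARS1, chr12:57488046-57488089 (plus strand) for MARS1 and chr11:3057400-3057443 (minus strand) for CARS1.
IARS1: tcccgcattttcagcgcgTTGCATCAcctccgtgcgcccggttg
AARS1: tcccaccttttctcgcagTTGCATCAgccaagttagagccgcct
MARS1: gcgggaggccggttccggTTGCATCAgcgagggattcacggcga
CARS1: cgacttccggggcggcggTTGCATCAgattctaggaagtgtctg

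Of 73 tested genes for cytosolic ribosomal proteins 44 fell and 6 rose (median −0.38). RPL22 read 9.96, 10.17 and 10.07 on the combined arrays and 12, 11.95 and 12.31 on the control arrays, a change of −2.02 ± 0.13. RPL37 fell by 1.98 ± 0.11, RPL30 fell by 1.58 ± 0.11 and RPL28 fell by 1.5 ± 0.09. RPL10L, a testis-expressed retrocopy whose probe may also bind RPL10 transcripts, was at least 14-fold higher, and RPS27L, a p53-inducible paralogue, rose by 0.88 ± 0.08. RPL39L, another testis-expressed paralogue, went from no detection to detection on all 3 combined arrays (at least 1.04-fold higher). Mitochondrial ribosomal proteins (19 of 76 higher, 28 lower), oxidative phosphorylation subunits (18 of 67 higher, 22 lower) and ribosome biogenesis genes (28 of 78 higher, 26 lower) lay near the shares of all genes. Under median scaling 2 ribosome biogenesis genes rose and 37 fell, as 2 and 39 mitochondrial ribosomal and 4 and 34 respiratory genes did. Under cyclic loess the medians of the last pair of lists turned to 0.02 and 0.04. Within the respiratory chain, the testis isoform genes COX7B2 (at least 2.23-fold higher) and COX6B2 (at least 1.04-fold) rose.

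Genes of protein folding and breakdown moved in both directions. Genes on the proteasome subunit list rose in 21 of 33 and fell in 3 (median 0.37), but under median scaling 3 rose and 4 fell. Among the 3 that fell is PSMC3IP (−1.66), described above as a partner of recombination proteins and not a subunit. PSMD1 rose by 1.10 ± 0.09 and PSMD2 by 0.86 ± 0.08. Heat shock proteins and cytosolic chaperones rose in 14 of 36 and fell in 9, and the median turned from 0.13 to −0.23 under median scaling. HSPA1A, the stress-inducible HSP70, which has a near-identical copy, read 11.23, 11.14 and 11.27 on the combined arrays and 4.87, 4.83 and 4.80 on the control arrays (at least 23.2-fold). HSPA2, the testis-enriched HSP70, rose by 3.35 ± 0.10 and HSPA6 was at least 2.22-fold higher. The constitutive HSP90AB1 fell by 0.98 ± 0.11 and HSPB1 fell by 0.89 ± 0.16. Endoplasmic reticulum chaperone and UPR genes rose in 11 of 37 and fell in 13, or in 12 and 10 under cyclic loess and 3 and 18 under median scaling. SDF2L1 rose by 1.09 ± 0.08, CRELD2 by 0.96 ± 0.07 and DNAJC3 was at least 1.99-fold higher, while CRELD1 fell by 1.48 ± 0.09 and EDEM1, a degradation factor, was at least 1.59-fold lower.

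Lysosome and autophagy genes rose in 23 of 53 and fell in 12, but in 8 and 18 under median scaling. MAP1LC3A, an autophagosome protein, read 10.66, 10.68 and 10.46 on the combined arrays and 5.35, 4.87 and 5.27 on the control arrays (at least 15.2-fold). GABARAPL1, of the same family, rose by 1.27 ± 0.09 and the lysosomal galactosidase GLA by 1.24 ± 0.06, while the glucosidase GAA fell by 1.40 ± 0.08. Of metallothioneins, which bind zinc and copper, and their regulators, 7 of 9 rose and 1 fell, with 2 higher and 1 lower under median scaling. MT3, the brain isoform, read 10.00, 9.98 and 9.89 on the combined arrays and 4.81, 4.89 and 4.81 on the control arrays (at least 9.75-fold). MT1G rose by 0.58 ± 0.11, a call lost under median scaling (adjusted p = 0.424), and the zinc exporter SLC30A1 rose by 0.92 ± 0.08. MT1X fell by 0.46 ± 0.09, a call lost within chip 2 (adjusted p = 0.0702).

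Immune genes moved both ways. Interferon-stimulated genes and RNA sensors rose in 18 of 38 and fell in 12, with 16 and 15 under median scaling, where the median turned from 0.24 (0.08 with bounds) to −0.06. HERC5, an ISG15 ligase, read 9.48, 9.21 and 9.21 on the combined arrays and 5.14, 4.77 and 5.12 on the control arrays (at least 6.18-fold). IFI27 was at least 4.84-fold, the virus tether BST2 at least 4.55-fold and the guanylate-binding protein GBP2 at least 5.22-fold higher. IFITM3 fell by 1.41 ± 0.09, LGALS3BP fell by 1.49 ± 0.16 and IFI35 fell by 1.12 ± 0.15, all from clear control signal. MHC class I antigen presentation genes fell in 10 of 22 and rose in 5, or in 13 and 1 under median scaling. TAPBP, the peptide-loading chaperone tapasin, read 8.36, 8.31 and 8.32 on the combined arrays and 10.00, 9.78 and 9.67 on the control arrays. TAP2, a peptide transporter subunit, fell by 0.99 ± 0.12. MICB, a stress ligand of natural killer cells, rose by 1.80 ± 0.24, and the immunoproteasome subunit PSMB10 rose by 0.69 ± 0.09, a call lost under median scaling (adjusted p = 0.122). In the class II pathway 5 of 9 rose and 3 fell, or 3 and 3 under median scaling. HLA-DMB, which loads peptides on class II molecules, rose by 2.92 ± 0.09, while HLA-DOB was at least 1.42-fold lower.

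Target genes of p53 rose in 23 of 40 and fell in 9 (median 0.31), with 13 and 12 under median scaling. TP53INP1, an antiproliferative stress gene, read 9.28, 9.45 and 9.42 on the combined arrays and 7.41, 7.39 and 7.57 on the control arrays. TIGAR, a regulator of glycolysis, rose by 1.61 ± 0.11, AEN, a nuclease of apoptosis, by 1.51 ± 0.08, and MDM2, the ligase that degrades p53, was at least 1.72-fold higher. SERPINB5 fell by 1.03 ± 0.13, SESN2 fell by 0.95 ± 0.14 and CCNG1 fell by 0.87 ± 0.09. In the BCL2 family and other regulators of apoptosis 17 of 36 genes rose and 11 fell, against 7 and 13 under median scaling. BIK, a pro-apoptotic BH3-only protein, rose by 1.71 ± 0.11 and the kinase DAPK3 by 1.59 ± 0.19. The survival genes BCL2 (−1.44 ± 0.14) and BCL2L1 (−0.98 ± 0.16) fell.

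Targets of signalling pathways moved in both directions, as all genes did. WNT target and intestinal stem cell genes fell in 16 of 35 (45.7%) and rose in 11 (31.4%), against 36.2% and 32.8% of all genes. LEF1, a nuclear effector of WNT signalling, was at least 1.4-fold higher and the WNT target SP5 rose by 1.54 ± 0.09, whereas MYB, a factor of crypt progenitors, read 8.74, 8.74 and 8.72 on the combined and 10.33, 10.38 and 10.51 on the control arrays (−1.68 ± 0.09) and FOSL1 fell by 1.74 ± 0.17. AP-1, EGR and other immediate early genes rose in 16 of 36 and fell in 11, against 9 and 12 under median scaling. CCN2, the connective tissue growth factor, read 10.35, 10.39 and 10.46 on the combined arrays and 6.95, 6.84 and 6.81 on the control arrays. ARC was at least 6.76-fold higher, KLF2 rose by 2.26 ± 0.10 and the ERK phosphatase gene DUSP5 by 1.64 ± 0.08. JUNB read 7.22, 7.27 and 6.85 on the combined and 9.98, 9.37 and 9.07 on the control arrays (−2.36 ± 0.18), and ZFP36, which destabilises cytokine transcripts, fell by 1.51 ± 0.19.

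Chemokines, cytokines and NF-kB targets rose in 11 of 17 and fell in 6, or in 8 and 6 under median scaling. The NF-kB inhibitor genes NFKBIA (1.14 ± 0.10) and NFKBIZ (1.23 ± 0.09) rose, and PTGS2, the inducible cyclooxygenase, was at least 1.21-fold higher. MIF fell by 1.19 ± 0.08, LCN2 fell by 1.16 ± 0.14 and LIF was at least 1.53-fold lower. Of the EGF receptor pathway 14 of 32 fell and 8 rose. ERBB3, a receptor that pairs with other family members, fell by 1.5 ± 0.10 and PIK3R1, the regulatory subunit of PI3-kinase, was at least 2.18-fold higher. In the TGF-beta and BMP pathway 11 of 29 fell (37.9%) and 4 rose (13.8%), against 36.2% and 32.8% of all genes. The median was −0.02, or 0.05 under cyclic loess. Changes ran from −1.79 to 2.56, with 1 member higher and 3 lower by 2-fold or more. The lowest was the BMP target ID3 (−1.79 ± 0.08). It read 11.06, 11.15 and 10.96 on the combined arrays and 12.91, 12.82 and 12.82 on the control arrays.

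The X chromosome held the largest share of strong increases among chromosomes with at least 100 tested genes. Of its 336 tested genes 88 (26.2%) were higher by 2-fold or more, against 856 of 9142 autosomal genes (9.36%). Of the 88, 41 belong to the X-linked cancer-testis families or to the BEX and TCEAL family, all described above. Outside those families 47 of 290 X-linked genes (16.2%) were higher by 2-fold or more, although the median change of the 290 was 0.09. The families were set by gene name, so the 47 still include TKTL1 and the meiotic gene TEX11, and the same filter limit holds. Decreases of 2-fold or more were called for 6.85% of X-linked genes, close to the 7.52% over all genes. Among the autosomes, the share of 2-fold increases ran from 6.82% on chromosome 12 to 13.6% on chromosome 19 and 15% on chromosome 21.

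**Figure D5:**
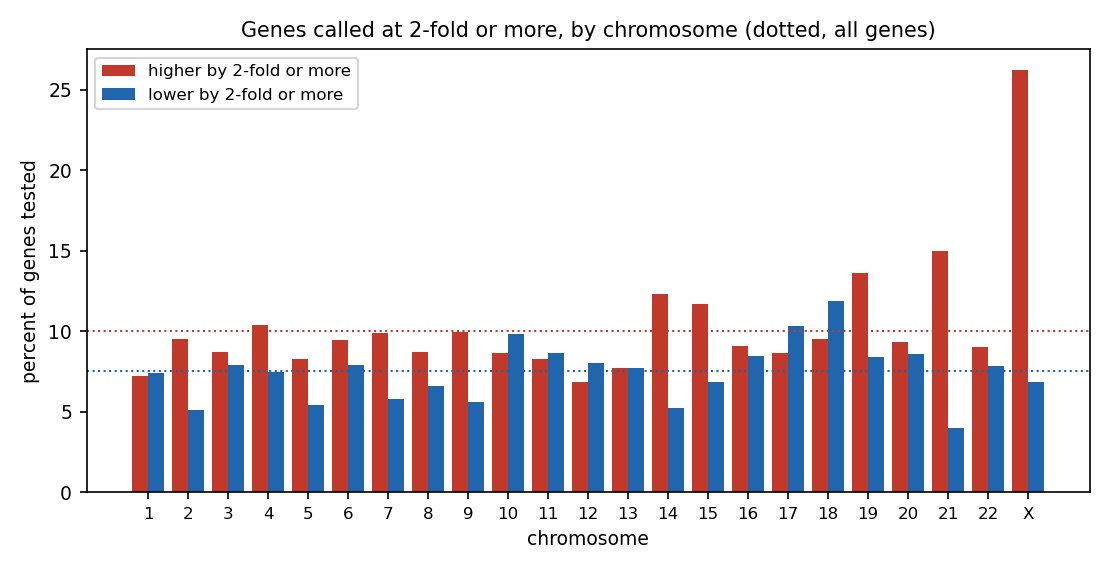
Percent of the tested genes of each chromosome called higher or lower by 2-fold or more in combined against control arrays, with dotted lines at 9.99% and 7.52% for all genes. The X chromosome reaches 26.2% higher and the autosomes lie between 6.82% and 15%. Shares are over genes that passed the detection filter, some of them only through treated arrays.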

How the data were processed

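Per the submitters' processing notes, GenomeStudio was used, and the authors deposited for every probe a linear intensity on each array. The values show no normalization between arrays. Beside each intensity stands the authors' detection p-value, per the file headers, whose steps match ranks among 759 control probes. The authors also deposited log2 values whose array medians all lie near 7.63. These served only as an alternative, and lumi 2.6.0 is named in the submitters' processing notes. No genome build for the arrays is given in the sources used here.

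Of 48801 probes 27577 had 1 gene symbol in the platform annotation, 13 had several, and the 21224 without exactly 1 symbol were left unnamed. RefSeq matched 27540 by gene ID. Intensities were background-corrected with limma 3.58.1 in R 4.3.3 (normal-exponential model from the detection p-values, offset 16), quantile-normalized and log2-transformed. The filter required detection (p under 0.01) on 3 or more of the 12 arrays and kept 13915 probes, 11694 of them with 1 gene, and a gene was its kept probe with the highest mean (9484 genes). More than 1 probe was kept for 1937 genes, and in 120 of them probes were called in opposite directions, none of them named here. The precision rests on 3 arrays per group.

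One limma model with 4 group means was fitted over all 12 arrays. Tests were two-sided moderated tests of combined minus control, and of combined minus each single agent, reported for named genes and as counts, adjusted by Benjamini-Hochberg over all genes, with a threshold of 0.05. The fit was tested on simulated data. The comparison, its lists and the rule that names genes were chosen with earlier results of these data known, so no list supports another. The rule allows the 10 largest changes each way without array overlap, up to 4 list members in the main direction and 3 in the other with the largest change, the 6 brightest genes that detection switched on or off, and preset genes. Not every gene it allows is printed. Lists have no test and are read against all genes tested. Promoter windows are RefSeq's (GRCh38.p14), found for 7831 genes. Lists with under 80% of tested members matched were not compared. Alternatives changed the background correction, scaling, filter, probe rule, arrays, chip, replicate block, weights and replicates.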

Additional observations from a re-analysis of the deposited data

Results flagged for a closer look

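The probes with no gene name were left out of every comparison above. Of 2221 such probes that passed the detection filter, 694 were called higher and 844 lower, against 32.8% higher and 36.2% lower of all genes tested. The calls come from a limma fit of the same form over all 13915 kept probes, with p adjusted over those probes. On all 3 combined arrays but no control array 223 of them were detected, against 45 detected on all 3 control arrays but no combined array. The largest change, in probe ILMN_2233576, was 10.13 ± 0.11 (SE, n = 3 arrays per group, adjusted p = 9.3e-16). These probes are pointed out because they lie in data that no comparison used. More of them were called lower than higher, as was also so over all genes. Their part in the results was not tested.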

How the results depend on the processing

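The count of all genes called lay within 1.5 times the 6541 reported under every alternative. Genes called higher came to 1527 under median scaling against 3108. The genes called at 2-fold or more, 1660 in all (947 higher and 713 lower), came to 797 without background correction (543 and 254) and to 546 in the authors' processed values (377 and 169). A background offset of 50 left 460 lower, and median scaling gave 797 higher and 1299 lower. By construction, the background settings change the log2 scale of dim probes and median scaling shifts all genes. For the other differences the cause was not tested.

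Leaving out 1 array at a time gave 6094 to 6348 genes called (2892 to 3057 higher, 3202 to 3291 lower) and 1616 to 1711 at 2-fold or more. Genes switched on came to 681 to 781 and genes switched off to 139 to 266. The difference in detected probes per array ran from 660.5 to 1248.5. Of 245 named genes 228 kept direction and call under every alternative. HDAC2 (−0.00 as reported) came to 0.0409 under cyclic loess and 0.0390 with array weights, and to between −0.0278 and 0.0445 with 1 array left out. CDH1 (−0.00) came to 0.0245 under cyclic loess and 0.0962 with array weights, and to between −0.0664 and 0.0575 with 1 array left out. Neither gene was called under these settings.

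The labels number replicates alike in all groups. Same-numbered combined and control arrays deviated from their group means with correlations of 0.16, −0.29 and 0.43, so the numbers were not taken as pairs. Combined and control arrays on the same chip gave 0.16, 0.34, 0.04 and 0.43. Those on different chips gave −0.43, 0.19, −0.29, −0.34 and −0.10. The main fit held no chip term. With the replicate number as a block 6831 genes were called (3252 higher and 3579 lower), and 1660 at 2-fold or more. Not every array correlated best with its own number. With chip as a block 6957 genes were called. The number of arrays limits precision, and a gene below detection has only a bound.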

Other observations

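Several gene families not described above also held large single changes. In the HOX clusters, whose genes set body axis identity, 9 of 18 tested genes rose and 1 fell, or 5 and 2 under median scaling. HOXD1 was at least 3.49-fold higher, HOXB4 rose by 2.21 ± 0.13 and HOXB8 by 2.03 ± 0.10, while HOXC4 was at least 1.65-fold lower. Zinc finger genes named ZNF rose in 81 of 213 and fell in 54, but 42 rose and 62 fell under median scaling. S100 genes, which encode small calcium-binding proteins, rose in 5 of 11 and fell in 2, or 4 and 3 under median scaling. Galectins and annexins rose in 8 of 16 and fell in 4, or 5 and 6 under median scaling. Of 39 tested genes of oxidative stress and NRF2 17 rose and 12 fell, against 7 and 19 under median scaling. In the globin and erythroid list 4 of 6 tested genes rose and 1 fell.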
